A study of Talinum fruticosum with 24 samples.

Results

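Ribosomal protein genes were followed in leaves of Talinum triangulare, which the labels list as Talinum fruticosum, over a day and a night in both of the plant's photosynthetic modes. Members were the genes whose short description in the authors' table contains the words ribosomal protein, which held for 305 of the 22079 genes listed. The plant shifts from C3 photosynthesis to crassulacean acid metabolism (CAM), with CO2 uptake by night, when water is short. Leaves were harvested after 12 d of drought (CAM) or after 12 d of drought followed by 2 d of re-watering (reC3), at zeitgeber time 6 h (midday, MD), 12 h (end of day, ED), 18 h (midnight, MN) and 24 h (end of night, EN). Each of these 8 groups held 3 libraries that the labels call biological replicates. All plants were grown well watered and then droughted, and no group of leaves that never saw drought was analysed here, so a higher level in CAM cannot be told apart from a fall after re-watering, and the same holds for photosynthetic mode and water supply.

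A ribosome joins a small and a large subunit, each a scaffold of ribosomal RNA clothed with many proteins. Plant cells build 3 kinds: cytosolic ribosomes from nuclear genes, often present as several near-identical copies, and ribosomes of bacterial type in plastids and in mitochondria, whose proteins are encoded partly in the nucleus and partly in the organelle. In leaves the plastid ribosomes make core subunits of the photosystems and the large subunit of Rubisco, and building ribosomes is among the largest costs of a cell.

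The words plastid or chloroplast stood in the text of 9 members, mitochondrial in 12, and neither in the remaining 284. Many plastid proteins are described without their compartment, so the classes used here also take in an identifier list of nuclear genes for plastid ribosomal proteins, of whose 40 entries 31 are members. This gave 32 plastid members encoded in the nucleus, 25 members of the plastid genome, 15 mitochondrial members, 193 structural members with no organelle named, and 40 that carry a ribosomal protein domain or a related name without being described as a structural part of the ribosome. Of the 193 structural members, the longer text of 108 names the cytosolic ribosome, and some of the others may act in organelles. In all 305, 15 members had no count in any library, and 278 passed the filter on low counts: 32 plastid, 15 plastid-encoded, 11 mitochondrial, 186 structural and 34 domain members. Reads of Talinum were assigned to Arabidopsis identifiers and 176 members share their text with another member, so the division of reads among such copies is uncertain.

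The libraries held 4310225 to 8756145 counts, of which members took 1.68% to 5.97%. The labelled tissue was checked with markers: the gene of the Rubisco small subunit AT1G67090 stood at 12387 to 111076 CPM (counts scaled to TMM-adjusted library totals), and the 4 root markers summed to at most 2.85 CPM, with 2 of them at 0 in all libraries. The library reC3 EN replicate 1 stood apart, with a mean correlation to its partners of 0.941, and results that rest on it are given with and without it. MD and MN libraries came from an earlier series and ED and EN libraries were new. Changes between times within a mode are therefore tested only within each set (MD with MN, ED with EN). Levels of different sets that stand side by side also compare the library sets. The interaction of mode and time takes in all 4 times and so spans both sets. An effect of the library set that differed between modes cannot be told apart from a change with time there. Every adjusted p comes from edgeR's quasi-likelihood test over the 14065 genes tested, calls were made at 0.05, and log2 fold changes are CAM minus reC3 unless another difference is named. In whole leaves, fewer cells of a type and less RNA per cell cannot be told apart.

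Averaged over the 4 times, ribosomal protein genes stood higher in CAM. Of the 278 members tested, 121 were called higher and 5 lower, with a median log2 difference of 0.26. Among all genes tested 32.3% were called higher and 32.5% lower, with a median of 0.01, so the members' excess lay mainly in how few were lower. The 5 members called lower, listed here after their values were seen, were the ClpS family gene AT1G68660 (-0.39), AT2G36170 (L40e fused to ubiquitin, -0.23), AT5G55140 (L30 family, -0.46) and the plastid-encoded ATCG00830 (L2, -0.23) and ATCG00840 (L23, -0.56). The sign was positive at all 4 times in 82 members and negative at all 4 in 2, and this was not counted over all genes tested. By text class, 5 of 9 plastid, 9 of 10 mitochondrial and 107 of 259 other members were called higher, with medians of 0.42, 0.41 and 0.25. The counts were 182 higher and 2 lower without reC3 EN replicate 1. Leaving out reC3 MD replicate 1 or reC3 MN replicate 1 left 3 called lower.

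**Figure D1:**
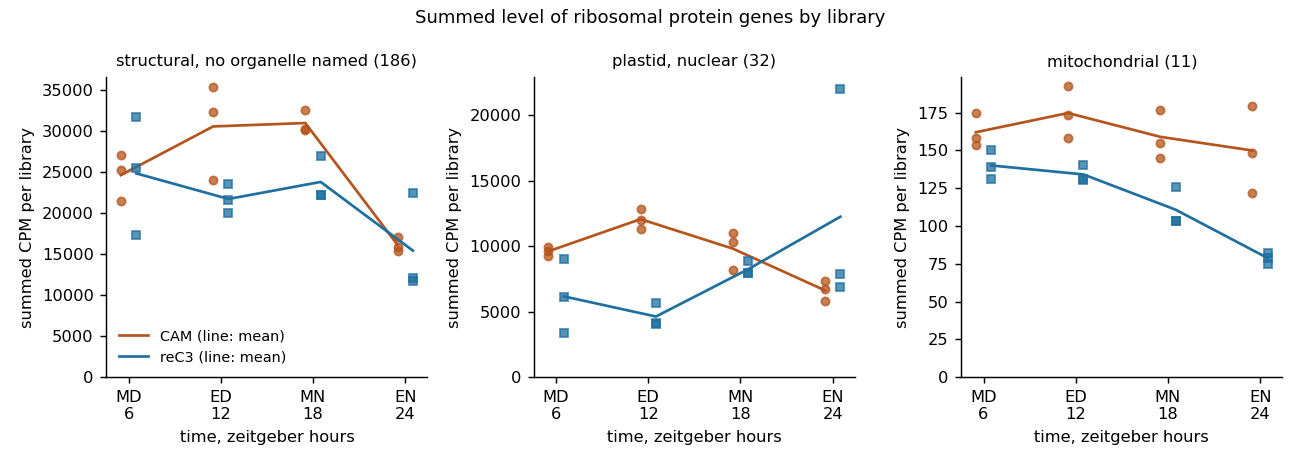
Summed CPM of all members of 3 classes, tested or not, in each of the 24 libraries (y axis) against zeitgeber time in hours (x axis). The numbers in the panel titles are those tested. Circles are CAM, squares are reC3, and lines join group means of 3 libraries. MD and MN come from the earlier library set and ED and EN from the new one. At ED the plastid sums were 11319 to 12836 CPM in CAM and 4063 to 5669 CPM in reC3, and reC3 EN replicate 1 reached 21954 CPM.

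Among the plastid members encoded in the nucleus the difference between modes changed with the time of day. Their summed level at ED was 12836, 11319 and 12008 CPM in the CAM libraries and 5669, 4165 and 4063 CPM in the reC3 libraries, a ratio of means of 2.60 with no overlap. At MD the CAM libraries held 9240, 9962 and 9613 CPM and the reC3 libraries 9024, 6086 and 3393 CPM, so that reC3 was lower but spread widely. At MN the sums were 10296, 10963 and 8167 CPM in CAM and 8836, 7928 and 7950 CPM in reC3, which overlap. At EN the order turned: 5782, 6727 and 7367 CPM in CAM against 21954, 6886 and 7887 CPM in reC3, where replicate 1 was far above its partners and the CAM replicate 3 lay within the range of the reC3 libraries.

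At ED, 30 of the 32 plastid members were called higher in CAM and none lower, with a median log2 difference of 1.35. All genes tested gave 21.5% higher and 23.9% lower at this time, and all 278 members gave 103 higher and 1 lower. Leaving out single libraries gave 22 to 31 plastid members. The 2 that were not called were AT1G78630 (L13, 0.62) and AT3G17465 (an L3 described as plastid, 0.24). Small and large subunits shared the pattern, with 10 of 10 and 18 of 20 called. Among all members at ED, the count fell to 61 without CAM ED replicate 1 and to 67 without reC3 ED replicate 2.

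The most counted plastid member, AT5G30510, encodes S1, the small-subunit protein that in bacteria helps the ribosome take hold of messengers. Its level at ED was 1005, 991 and 1036 CPM in CAM and 479, 393 and 421 CPM in reC3, and at EN 368, 419 and 421 CPM in CAM and 1527, 615 and 603 CPM in reC3. The CAM libraries were thus above every reC3 library at ED and below every one at EN. The log2 difference was 1.23 (SE 0.28, adjusted p = 0.0011) at ED and -1.18 (SE 0.28, adjusted p = 0.00118) at EN, and the interaction of mode and time was called (adjusted p = 0.000357). The difference at EN was -0.60 (adjusted p = 0.0215) without reC3 EN replicate 1.

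Proteins of the large subunit were likewise higher in CAM at ED, while at EN they differed among themselves. AT5G40950 encodes L27, which in bacteria reaches towards the site of peptide bond formation. It stood at 692, 629 and 638 CPM in CAM and 265, 185 and 183 CPM in reC3 at ED, a log2 difference of 1.63 (SE 0.28, adjusted p = 6.27e-05). At EN it was at 370, 386 and 460 CPM in CAM and 894, 382 and 415 CPM in reC3, and the groups overlapped. AT3G63490, of the L1 family that shapes the exit side of the ribosome in bacteria, had 777, 748 and 763 CPM in CAM and 354, 256 and 264 CPM in reC3 at ED (1.39), and at EN its difference was -0.27 and not called. AT3G27830, which encodes L12, the stalk protein that draws translation factors to bacterial ribosomes, differed by 1.16 at ED and -1.60 at EN, and without reC3 EN replicate 1 its difference at EN was -0.67 and not called (adjusted p = 0.0891). AT1G32990 (L11, at the base of that stalk) differed by 1.68 at ED and by -0.86 at EN (adjusted p = 0.0425). AT3G15190 (S20) differed by 1.11 at ED and by -0.73 at EN, the second not called. The plastid-specific protein PSRP4 (AT2G38140), which has no bacterial counterpart among the standard set, differed by 1.16 at ED and by -0.51 at EN, the second not called. Without reC3 EN replicate 1 none of L27, L1, L11, S20 and PSRP4 was called at EN, with differences of 0.02, 0.40, -0.18, -0.08 and 0.11.

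At EN, 14 of the 32 plastid members were called lower in CAM and 1 higher, with a median of -0.88. For all genes tested 24.1% were called higher and 29.2% lower, and for all members the counts were 47 and 25. The most negative differences were those of AT5G13510 (L10, which carries the stalk, -1.96, SE 0.46, adjusted p = 0.00147) and AT3G25920 (L15, -1.80). L15 stood at 142, 199 and 184 CPM in CAM and 1191, 284 and 349 CPM in reC3. Both differences were smaller without reC3 EN replicate 1, at -0.89 (adjusted p = 0.0325) for L10 and -0.86 (adjusted p = 0.0298) for L15. Without reC3 EN replicate 1 only 5 plastid members were called lower and 2 higher, and the median was -0.03. Leaving out CAM EN replicate 1 gave 9 lower and leaving out reC3 EN replicate 2 gave 24 lower. Without reC3 EN replicate 1 the members as a whole were called higher in 87 and lower in 8, and without reC3 EN replicates 2 or 3, or CAM EN replicates 1 or 2, the count of lower calls was 42, 38, 16 and 15. Scaling by library totals alone gave 109 higher and 15 lower, but it also moved the median of all genes tested at EN to 0.21.

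At MD and MN few plastid members differed. At MD 5 were called higher in CAM, with a median of 0.60, and at MN 1, with a median of 0.29, and none was called lower at either time. The count at MD was 17 without reC3 EN replicate 1, a library outside this comparison. It was 2, with a median of 0.36, without reC3 MD replicate 3, whose plastid sum of 3393 CPM was the lowest of its group. All genes tested gave 22.7% higher and 21.3% lower at MD, and 18.1% higher and 20.5% lower at MN. All members gave 28 higher and 3 lower at MD, and 39 higher and 2 lower at MN. The count at MD was 18 without CAM MD replicate 3 or CAM MN replicate 2, 16 without reC3 MD replicate 3 and 45 without reC3 EN replicate 1. The count at MN ranged from 16 without reC3 MN replicate 3, 19 without CAM MN replicate 1, 21 without reC3 MN replicate 2 and 25 without CAM MN replicate 3 to 73 without reC3 EN replicate 1.

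**Figure D2:**
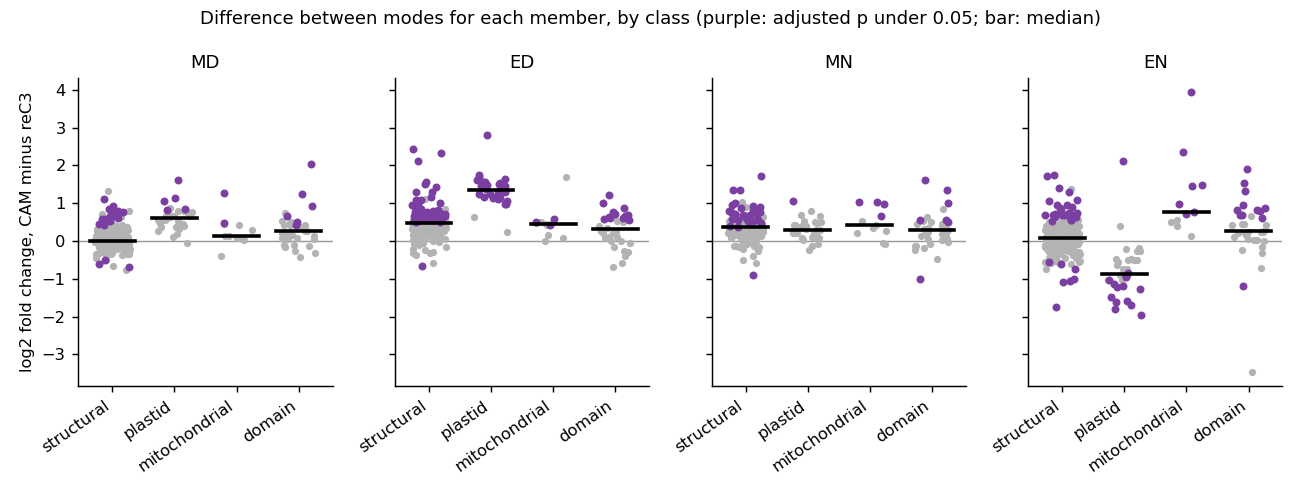
Log2 fold change between modes (y axis, CAM minus reC3) of each tested member at MD, ED, MN and EN, for 186 structural, 32 plastid, 11 mitochondrial and 34 domain members. Each point is a gene, purple where its adjusted p was under 0.05, and bars are class medians; the plastid median was 1.35 at ED and -0.88 at EN.

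Because both sums come from the same library, the plastid sum as a percent of the structural sum does not depend on scaling. In the 12 CAM libraries it lay between 27.2% and 50.03%. In reC3 it was 28.4%, 23.9% and 19.7% at MD and 28.4%, 19.3% and 17.3% at ED, then 32.8%, 35.8% and 35.8% at MN and 97.7%, 57.0% and 67.5% at EN. At EN all 3 reC3 libraries lay above the CAM libraries of that time (37.6% to 43.2%), and at ED all 3 lay below the CAM libraries of that time (35.1% to 50.03%). Replicate 1 was the highest of the reC3 libraries at EN, and the other 2 were still above every CAM library at EN and every reC3 library at ED.

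**Figure D3:**
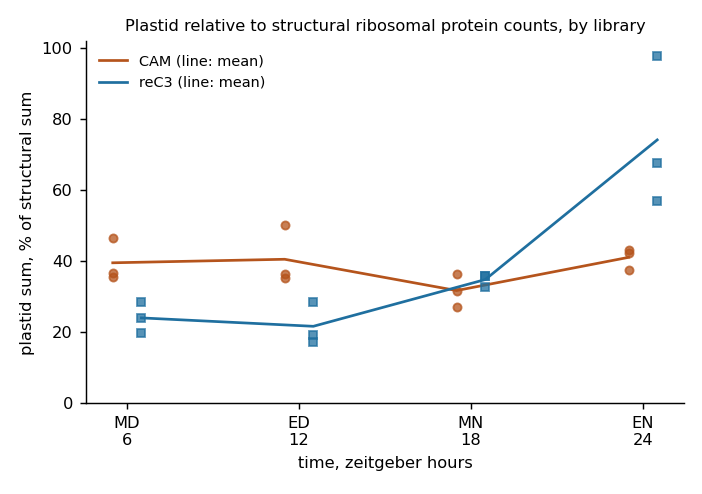
Summed CPM of the 32 plastid members as a percent of that of all 193 structural members (y axis) in each library against zeitgeber time in hours (x axis). Circles are CAM, squares reC3, and lines join group means; reC3 libraries ranged from 17.3% at ED to 97.7% at EN.

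The change from ED to EN ran in opposite directions in the plastid members. In CAM 16 of 32 were called lower at EN than at ED and none higher (median -0.90), while in reC3 29 were called higher and 2 lower (median 1.42). The 2 that fell in reC3 were AT5G24490 and AT3G17465, by 3.22 and 3.21 on the log2 scale. In all, 27 plastid members had a negative sign in CAM and a positive sign in reC3, 13 of them called in both. Among all genes tested 32.2% were called lower in CAM and 29.1% higher in reC3, and the joint count was not made for them. The interaction of mode and time, which tests such differences, was called in 30 of 32 plastid members, in 66 of all 278 members and in 46.8% of all genes tested. The count of rises in reC3 was 19 without reC3 EN replicate 1 (median 0.69), and the interaction was then called in 21. Leaving out CAM ED replicate 1 or CAM EN replicate 1 left 10 and 9 plastid members called lower at EN in CAM. With library totals alone the median of all genes tested moved to -0.97 for this difference in reC3, and 8 plastid members were called higher, with a median of 0.39 that lay 1.35 above that of all genes.

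L9 (AT3G44890), a large-subunit protein, showed this course in the libraries. In CAM it stood at 457, 396 and 413 CPM at ED and 179, 259 and 260 CPM at EN. In reC3 it stood at 196, 136 and 134 CPM at ED and 940, 348 and 395 CPM at EN. No library of one time overlapped the other in either mode, and without reC3 EN replicate 1 the rise in reC3 was 1.26 (adjusted p = 0.000522). L9 also rose from MD to MN in reC3 by 1.41 (adjusted p = 0.00159), but there replicate 3 at MD (82.3 CPM) was far below its partners (245 and 139 CPM).

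The summed level of 5 leaf mesophyll markers, carried mainly by the Rubisco small subunit AT1G67090 and Rubisco activase AT2G39730, was 30507 to 46428 CPM in CAM and 14310 to 25157 CPM in reC3 at ED. At EN it was 69134 to 88623 CPM in CAM and 112691 to 187146 CPM in reC3. The single markers were mixed at ED, where 1 was called higher in CAM and 1 lower, the latter being the light-harvesting gene AT1G61520 (-1.77). At EN 4 of the 5 were called lower in CAM and none higher. Their part in the plastid members' differences was not tested.

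PSRP1 differed from most of its class at EN and in its course from ED to EN in reC3. AT5G24490 is described as a putative 30S ribosomal protein and is known as plastid-specific ribosomal protein 1, a relative of the bacterial factors that hold resting ribosomes in an inactive state. It had the largest difference of the average among members, 1.90 (SE 0.17, adjusted p = 3.53e-09), and was called higher in CAM at each of the 4 times. Its level was 940, 1045 and 1027 CPM in CAM and 513, 262 and 204 CPM in reC3 at MD, and 1013, 1070 and 1185 CPM in CAM and 204, 162 and 99.5 CPM in reC3 at ED. In the night it fell to 114, 166 and 115 CPM in CAM and 65.9, 68.9 and 53.4 CPM in reC3 at MN, and to 64.3, 70.1 and 82.2 CPM in CAM and 28.8, 9.22 and 12.1 CPM in reC3 at EN. The modes did not overlap at any time. From ED to EN it fell by 3.92 in CAM and by 3.22 in reC3 on the log2 scale, and from MD to MN by 2.93 and 2.38, so within each library set it was lower by night in both modes. Its interaction of mode and time was called (adjusted p = 0.0242).

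**Figure D4:**
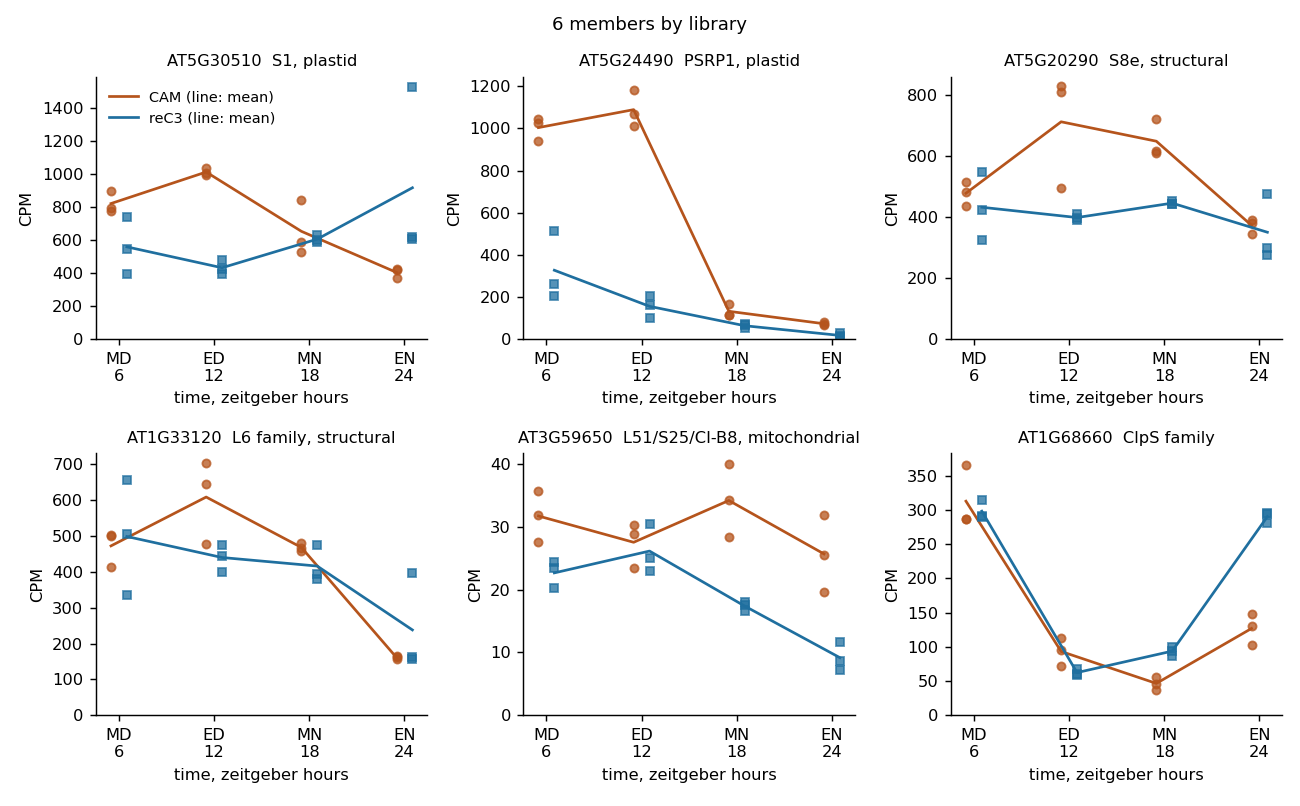
CPM of 6 members in each library (y axis) against zeitgeber time in hours (x axis). Circles are CAM, squares reC3, and lines join group means of 3 libraries; PSRP1 stood at 940 to 1185 CPM in CAM by day and at most at 166 CPM in any library by night.

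Structural members with no organelle named, most of them cytosolic where a location is given, were also higher in CAM in the average, by a smaller step. In the average 80 of 186 were called higher and 2 lower, with a median of 0.24. Of the small subunit 28 of 62 were called higher and none lower, of the large subunit 41 of 100 higher and 2 lower, and of the acidic stalk proteins 2 of 7 higher. The higher count was 128 without reC3 EN replicate 1. Leaving out any of 6 libraries (CAM MD replicate 2, CAM ED replicate 3, reC3 MD, MN and EN replicate 1, and reC3 ED replicate 3) left 1 called lower. At ED 58 (31.2%) were higher and 1 lower (median 0.47), beside 21.5% and 23.9% of all genes tested. The 58 became 27 without CAM ED replicate 1, 36 without CAM ED replicate 2, 33 without reC3 ED replicate 1, 36 without reC3 ED replicate 2 and 94 without reC3 EN replicate 1. Sums are over all 193 members of the class, tested or not. The summed level at ED was 35340, 32221 and 24004 CPM in CAM and 19978, 21594 and 23520 CPM in reC3, so that CAM replicate 3 lay just above the highest reC3 library. At MN the sums were 32577, 30181 and 30056 CPM in CAM and 26969, 22142 and 22206 CPM in reC3, without overlap. At MD they overlapped, with 25245, 21457 and 27105 CPM in CAM and 31726, 25453 and 17254 CPM in reC3. At EN they overlapped as well, with 15388, 15896 and 17055 CPM in CAM and 22465, 12088 and 11687 CPM in reC3. Of the 186 tested, 15 (8.06%) were higher and 3 lower at MD (median -0.008), 28 (15.1%) and 1 at MN (0.37), and 26 (14.0%) and 7 at EN (0.08). Among all genes tested 22.7% were higher and 21.3% lower at MD, 18.1% and 20.5% at MN, and 24.1% and 29.2% at EN.

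The S8e protein of the small subunit (AT5G20290) was the most counted of this class. Its level at ED was 811, 832 and 496 CPM in CAM and 396, 390 and 410 CPM in reC3, a log2 difference of 0.84 (SE 0.21, adjusted p = 0.00302). At MD it was 483, 436 and 516 CPM in CAM and 548, 423 and 325 CPM in reC3, and the groups overlapped. L19e (AT1G02780), a large-subunit protein, was higher in CAM in the average by 0.60 (SE 0.12, adjusted p = 0.000129), and at EN it stood at 389, 391 and 414 CPM in CAM and 328, 165 and 165 CPM in reC3. S24e (AT3G04920) differed by 0.22 in the average and was not called (adjusted p = 0.062), while S4 (AT5G15200), L6 (AT1G33120) and L24 (AT2G36620) lay at 0.03, -0.0009 and -0.02. The 3 most counted acidic stalk proteins, which bind translation factors on the cytosolic ribosome, had averages of 0.19 (AT3G44590), 0.08 (AT5G24510) and 0.26 (AT5G47700) that were not called. These 3 passed the threshold without reC3 EN replicate 1, at 0.26, 0.24 and 0.38.

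The main pattern of the structural members was a lower level at EN than at ED in both modes. From ED to EN 139 were called lower and 5 higher in CAM (median -0.96), and 89 lower and 8 higher in reC3 (median -0.56). All 278 members gave 181 lower and 16 higher in CAM and 116 lower and 45 higher in reC3. Among all genes tested 32.2% were lower and 31.5% higher in CAM, and 28.8% lower and 29.1% higher in reC3. Of the 186 structural members 81 were called lower at EN in both modes, a joint count that was not made over all genes tested. In reC3 the count of lower structural members was 143 without EN replicate 1, 55 without EN replicate 2 and 45 without EN replicate 3. The 16 higher members of CAM were 9 without CAM EN replicate 1, and the 116 lower members of reC3 were 71 without reC3 EN replicate 3. Under library totals alone all members gave 227 lower and 7 higher in CAM and 219 lower and 12 higher in reC3, with all genes tested at medians of -0.46 and -0.97.

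L6 (AT1G33120) is an example. In CAM it stood at 702, 646 and 477 CPM at ED and 161, 165 and 156 CPM at EN. In reC3 it stood at 400, 443 and 476 CPM at ED and 396, 156 and 162 CPM at EN. It fell by 1.92 (SE 0.28, adjusted p = 3.41e-06) in CAM and by 0.89 (SE 0.27, adjusted p = 0.00825) in reC3. The reC3 replicate 1 at EN was again apart from its partners, and without it L6 fell by 1.47 in reC3. S4 (AT5G15200) fell by 1.51 in CAM and 0.72 in reC3, and the stalk gene AT5G24510 by 1.65 and 0.96.

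**Figure D5:**
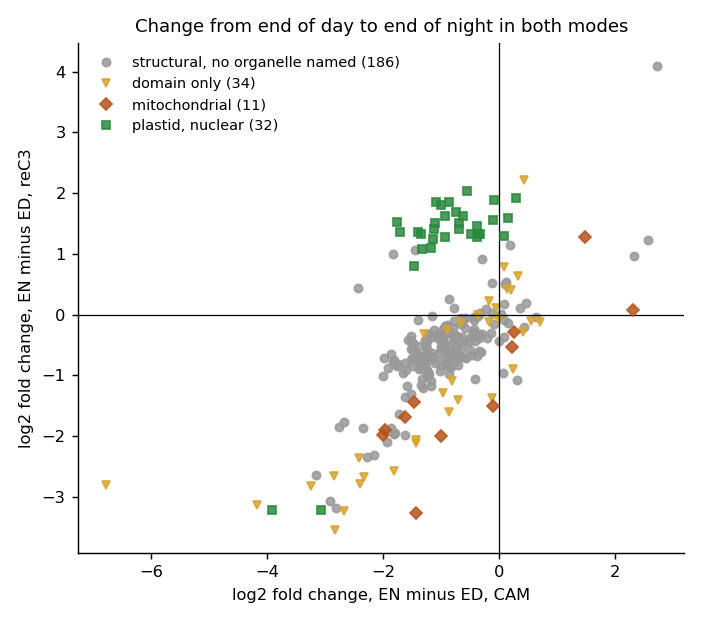
Log2 fold change from ED to EN in CAM (x axis) and in reC3 (y axis) for each tested member of 4 classes, each point a gene. Structural members lie mostly at lower left, where both values are negative, and plastid members (green squares) mostly at upper left, with medians of -0.90 in CAM and 1.42 in reC3.

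A few structural members ran the other way. AT3G06180 and AT5G19025, both of the L34e superfamily, rose from ED to EN in CAM by 2.33 and 2.58 and in reC3 by 0.96 and 1.23. AT3G06180 stood at 11.5, 11.5 and 7.11 CPM at ED and 43.1, 40.7 and 69.1 CPM at EN in CAM, and at 13.2, 12.5 and 12.1 CPM and 21.4, 27.8 and 24.5 CPM in reC3. At EN it was higher in CAM by 1.05, while at MD it was lower by 0.62, a call lost under 6 of the alternatives tried. Between MD and MN the largest rises in CAM at 10 CPM or more were AT1G80750 (L30/L7 family, 1.35, adjusted p = 0.000122) and AT2G20450 (L14, 1.03, adjusted p = 0.00515), which in reC3 differed by 0.42 and 0.04 and were not called.

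Between MD and MN the members moved less and in mixed directions. In CAM 46 were called higher at MN and 41 lower (median 0.24), and in reC3 13 higher and 36 lower (median -0.02). Among all genes tested 25.6% were higher and 26.5% lower in CAM, and 21.7% higher and 21.7% lower in reC3. These directions turned on the scaling, since library totals alone gave 138 higher and 21 lower in CAM and 97 higher and 7 lower in reC3, with all genes tested shifted to medians of 0.35 and 0.43. The CAM count of higher members was 25 without CAM MD replicate 2, 29 without CAM MN replicate 1 and 73 without reC3 EN replicate 1. In reC3 it was 21 without MD replicate 1, 7 without MD replicate 3, MN replicate 1 or MN replicate 2 and 24 without EN replicate 1, and the count of lower members was 23 without MD replicate 2 and 22 without MN replicate 3.

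Mitochondrial members were counted at low levels, at most 33.4 CPM in the mean, and nearly all were higher in CAM in the average. There 10 of 11 were called higher and none lower (median 0.43), the exception being AT5G40080 (L27, 0.29). At EN 7 were called higher (median 0.77), at MN 4 (0.43), at ED 3 (0.46) and at MD 2 (0.13), with none lower, and the interaction was called in 3. Among all genes tested 32.3% were called higher in the average, 24.1% at EN, 18.1% at MN, 21.5% at ED and 22.7% at MD. The mitochondrial shares of 27.3% at ED and 18.2% at MD were thus near those of all genes. The interaction was called in 46.8% of all genes tested. Over all 15 members of the class, tested or not, the sum at EN was 148, 122 and 180 CPM in CAM and 79.2, 82.1 and 75.1 CPM in reC3. At MD it was 158, 153 and 175 CPM against 139, 150 and 131 CPM, at ED 193, 173 and 158 CPM against 131, 131 and 140 CPM, and at MN 177, 145 and 155 CPM against 126, 103 and 103 CPM. The modes did not overlap at any of the 4 times, and the gap was smallest at MD. In contrast to the plastid class, reC3 EN replicate 1 was level with its partners here, and without it 8 of 11 were called higher at EN.

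AT3G59650, of the L51/S25/CI-B8 family of the mitochondrial ribosome, stood at 25.6, 19.6 and 31.8 CPM in CAM and 7.14, 11.7 and 8.65 CPM in reC3 at EN, a log2 difference of 1.48 (SE 0.20, adjusted p = 3.13e-06). At ED it was at 30.2, 28.9 and 23.5 CPM in CAM and 23.0, 25 and 30.4 CPM in reC3, and the interaction was called (adjusted p = 0.00138). The most counted, AT1G16870 (S29-related), fell from ED to EN by 1.47 in CAM and 1.43 in reC3. AT3G01740 (L37) ran opposite, rising by 1.48 in CAM and 1.27 in reC3, and was higher in CAM in the average by 0.51 (SE 0.08, adjusted p = 1.51e-05). AT1G07830 (L29 family), classed as structural but tied to the mitochondrial ribosome in its longer text, was higher in CAM by 1.13 (SE 0.10, adjusted p = 9.62e-10). Its level was 42.4, 31.1 and 40.5 CPM in CAM and 19.1, 13.3 and 12.6 CPM in reC3 at MN.

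Members of the plastid genome were thinly counted. The libraries were made from polyadenylated RNA, and most plastid transcripts carry no stable poly(A) tail; the part of this in the low counts was not tested. All 25, tested or not, summed to 30.7 to 202 CPM per library. At EN the sums were 202, 41.7 and 72.3 CPM in CAM and 127, 92.0 and 103 CPM in reC3, so CAM replicate 1 was far above its partners. Of the 15 tested, 3 were called in the average (1 higher, 2 lower) and none at MD, ED or MN. At EN 2 were called higher and 3 lower, 11 of 15 had a positive sign and the median was 1.42. The most counted, which went the other way, ATCG00830 (L2, a core large-subunit protein), stood at 26.6, 23.9 and 19.9 CPM in CAM and 72.8, 55.8 and 65.2 CPM in reC3 at EN, a log2 difference of -1.46 (SE 0.18, adjusted p = 1.08e-06). At ED its groups overlapped, with 15.5, 22.2 and 21.9 CPM in CAM and 18.6, 14.0 and 14.5 CPM in reC3, and in reC3 it rose from ED to EN by 2.03. Among thinly counted structural members, AT2G07675, a gene of the S12/S23 family, was higher in CAM at ED by 2.34, a call lost without reC3 ED replicate 3.

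Other members with large differences included domain members (AT4G23620 and AT5G08180) and structural members (AT3G17170 and AT5G56940). AT4G23620, whose text joins L25 with a glutaminyl-tRNA synthetase domain, was higher in CAM by 1.43 (SE 0.11, adjusted p = 1.51e-10) in the average and called at all 4 times. It stood at 20.3, 18.5 and 16.5 CPM in CAM and 3.20, 6.38 and 5.16 CPM in reC3 at EN. RFC3 (AT3G17170), an S6-like protein named after its effect on fatty acid composition, was higher by 1.14 (SE 0.08, adjusted p = 2.03e-11), with 115, 117 and 113 CPM in CAM and 38.7, 39.4 and 38.4 CPM in reC3 at ED. Together with PSRP1 and AT1G25260 (L10 family, 0.55 in the average), these were the 4 members called higher at all 4 times. How many of all genes tested were called so was not counted. AT5G08180, of the L7Ae family that includes proteins of small nucleolar ribonucleoproteins, was higher by 0.92 and fell from ED to EN by 2.83 in CAM and fell by 3.54 in reC3. AT5G56940 (S16 family) was higher by 0.86 in the average and by 1.74 at EN (SE 0.24, adjusted p = 3.02e-06).

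The ClpS family gene AT1G68660, a member through the L12-like fold in its description, encodes an adaptor that hands proteins to the Clp protease of plastids. It had the smallest interaction p among members with at least 10 CPM (adjusted p = 1.28e-05). It stood at 286, 366 and 286 CPM in CAM and 290, 314 and 290 CPM in reC3 at MD, where the modes overlapped. At EN it stood at 103, 130 and 147 CPM in CAM and 281, 294 and 296 CPM in reC3, a log2 difference of -1.19 (SE 0.17, adjusted p = 6.67e-06). From ED to EN it rose by 2.22 in reC3 and by 0.44 in CAM.

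Elongation factor genes that carry ribosomal protein domains were among the most counted members. LOS1 (AT1G56070), the cytosolic elongation factor that moves the ribosome along the messenger, was higher in CAM in the average by 0.30, with 1086, 1288 and 1191 CPM in CAM and 1016, 772 and 813 CPM in reC3 at MN. AT5G12110, an EF1B subunit that recharges the factor delivering aminoacyl-tRNA, was higher by 0.28 and at ED by 0.72. A pair of domain members fell steeply overnight in both modes: AT2G19720 (S15A B) fell from ED to EN by 3.24 in CAM and 2.82 in reC3, and AT5G53920, related to the methyltransferase of L11, by 2.68 and 3.23. AT5G53920 was also higher in CAM by 0.74 in the average.

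Other genes of translation were also called higher in CAM more often than lower in the average. Genes with initiation factor in their text were higher in 36 and lower in none of 55 tested, but 10 of these are factors of transcription by their text. Without those 10, a choice made after seeing the data, 31 of 45 were higher and none lower, among them subunits of eIF3, AT5G25780 (0.69) and AT1G10840 (0.71). Genes with elongation factor in their text were higher in 13 and lower in 2 of 23, of which 4 are rubber or transcript elongation factors. Without those 4, 12 of 19 were higher and none lower, with AT2G31060 at 1.42 and AT2G45030 at 0.99. Of 39 aminoacyl-tRNA synthetases, which load tRNAs, 26 were higher and 3 lower, with the alanyl enzyme AT1G50200 at 1.20. Of 21 genes picked by words such as ribosome biogenesis, rRNA processing or nucleolar, 17 were higher and 2 lower. Among them were the RRS1 family gene AT2G37990 at 1.25 and the gar2-related nucleolar gene AT2G42320 at -2.20. This list also takes in nucleolar proteins with a TLD domain or related to histone methyltransferases, and no count without them was made. Of 5 genes of the TOR pathway, a regulator of translation, TOR itself (AT1G50030) was called, at 0.25. These counts stand beside the 32.3% higher and 32.5% lower of all genes tested.

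Markers of several other cell types were lower in CAM. For dividing cells the direction was opposite to that of most members. Of 9 tested, 8 were called lower in CAM and none higher (median -3.33), and their sum at MD was 331, 229 and 61.5 CPM in reC3 and 15.2 to 23.3 CPM in CAM. The reC3 library with the lowest sum of these markers at MD, replicate 3, also had the lowest plastid and structural sums of its group. It had the lowest mesophyll sum too (43409 CPM, against 121861 and 95740 CPM) and the highest vascular sum (1331 CPM, against 649 and 791 CPM). At EN reC3 replicate 1 had the highest dividing cell (88.9 CPM), mesophyll (187146 CPM), plastid (21954 CPM) and structural (22465 CPM) sums of its group. Its vascular sum of 652 CPM lay between those of its partners. Of 7 vascular markers 6 were called lower in CAM in the average and 1 higher (median -1.81), with sums of 244 to 650 CPM in CAM and 502 to 1331 CPM in reC3. All 4 epidermis markers tested were called lower (median -0.31), and of 5 guard cell markers 3 were lower and 1 higher. The guard cell sum was mixed in direction. It was higher in CAM at MN (103 to 114 CPM against 47.3 to 53.7 CPM) and EN (187 to 216 CPM against 126 to 135 CPM). At MD (45.0 to 50.2 CPM against 50.5 to 58.0 CPM) and ED (28.0 to 32.0 CPM against 39.6 to 45.7 CPM) it was lower. The part of these cell types in the members' differences was not tested.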

How the data were processed

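Polyadenylated RNA of 24 leaf libraries was sequenced after TruSeq v2 preparation, which keeps no strand, per the labels' protocols. The authors deposited raw read counts per Arabidopsis gene identifier in 1 table, unscaled per the file headers. The submitters' processing notes name CASAVA 1.8.2 and TAIR10, while for the aligner and the counter the names were not given in the sources used here. A further 40 columns of values were not used. Replicates are biological per the labels.

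The test was run in R 4.3.3 with edgeR 4.0.16 (low counts removed by filterByExpr, TMM scaling, robust quasi-likelihood test, 1 mean per group, all 24 libraries, common biological coefficient of variation 0.196), and p-values were adjusted by Benjamini-Hochberg over all 14065 genes that passed, at a threshold of 0.05. The steps were tested on simulated data. Each standard error is the size of the log2 fold change divided by the root of the F value. Classes are described by counts called and medians beside the same over all genes, with no test over the list. Total counts set the precision: 4310225 to 8756145 per library.

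Members and lists were chosen with earlier results of these data known. Named members are, per text class (for the rest, per subunit), the 3 most counted, and the same for the plastid, mitochondrial and structural classes; the 6 largest called changes of the average in each direction at 10 CPM or more with the same sign at all 4 times (no fall qualified); the 4 smallest interaction p; and per time and per difference between times up to 2 in each direction without overlap. From other translation lists up to 3 with the smallest p are eligible. Members named outside this rule are those that complete a count of 5 or fewer, chosen after their values were seen. The classes by genome and by structural text were added after seeing the table. Alternatives tried were DESeq2 1.42.0, RLE scaling, library totals alone, no filter, a stricter threshold, a replicate block, only the 6 libraries compared, each library left out, the average without EN, and counts summed over members with the same text. No genome or sequences were used, so no positions are given.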

Additional observations from a re-analysis of the deposited data

Results flagged for a closer look

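The difference between CAM and reC3 itself differed between times, by the interaction of mode and time, in 20 of the 39 named members. Among all genes tested 46.8% passed this test (edgeR's quasi-likelihood test), so a call alone does not set a member apart. The named members were picked in part by the smallest interaction p, so their share is raised by the choice. Of all 278 members tested 66 were called.

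Plastid proteins of the nucleus made up 11 of these. Their adjusted p was 0.000357 for S1 (AT5G30510), 0.000518 for L9 (AT3G44890), 0.000815 for L27 (AT5G40950), 0.00235 for L11 (AT1G32990), 0.00274 for L10 (AT5G13510) and 0.00344 for L15 (AT3G25920). It was 0.00443 for L12 (AT3G27830), 0.00757 for S20 (AT3G15190), 0.013 for L1 (AT3G63490), 0.0242 for PSRP1 (AT5G24490) and 0.0347 for PSRP4 (AT2G38140). Without reC3 EN replicate 1 PSRP4 was no longer called (adjusted p = 0.105), while the other 10 were.

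Among the remaining members the adjusted p was 1.28e-05 for the ClpS family gene AT1G68660 and 3.51e-05 for the plastid-encoded L2 (ATCG00830), which were both lower in CAM at EN and without a called difference at MD. It was 0.000882 and 0.00436 for the L34e superfamily genes AT3G06180 and AT5G19025, which were lower in CAM at MD and higher at EN. It was 0.00138 for the mitochondrial AT3G59650, 0.00308 for AT1G07830 (L29 family), 0.00462 for AT5G08180 (L7Ae family) and 0.00622 for AT5G56940 (S16 family), whose differences were larger in the night. It was 0.0118 for AT5G53920, related to the methyltransferase of L11, which differed by 0.24 at ED and 1.01 at MN. Without reC3 EN replicate 1 all of these 9 were called.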

How the results depend on the processing

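Of 1971 alternatives for single named members, 1919 were scored as unchanged, 27 lost the call and 25 gained one. Differences that were not called could change sign. At EN those of L1 (AT3G63490) and PSRP4 (AT2G38140) were negative in the full fit, and 0.40 and 0.11 without reC3 EN replicate 1. Read counts limit the plastid-encoded and mitochondrial members most, and copies with the same text share reads. Replicate numbers do not pair libraries: same-numbered libraries of different groups had deviations correlated over 0.1 in 16 of 84 pairs (median 0.00995). With the replicate number as a block the average gave 135 higher and 6 lower, and no count moved by over 1.5 times. With members of the same text summed, 77 of 170 units were higher in the average and 5 lower, and 30 plastid members were higher at ED. All values below are counts called, and the cause of each shift was not tested unless the setting is itself stricter.

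With an adjusted p under 0.01 and a 2-fold change, the average gave 8 higher and 0 lower, MD 6 and 0, ED 33 and 0, MN 7 and 1, EN 13 and 13, MN minus MD 4 and 14 in CAM and 4 and 6 in reC3, EN minus ED 6 and 112 in CAM and 50 lower in reC3. For plastid members it gave 9 lower at EN and 9 lower in EN minus ED of CAM; for structural members 5 and 0 in the average, 10 and 0 at ED, 3 and 84 in EN minus ED of CAM, and 2 and 24 in reC3. The interaction at 0.01 gave 29 members, 16 of them plastid.

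Library totals alone moved the median of all genes tested to -0.21 at ED and 0.21 at EN. They gave 1 lower at MD, 57 higher and 4 lower at ED, 109 and 15 at EN, 138 and 21 in MN minus MD of CAM, 97 and 7 in reC3, 7 higher in EN minus ED of CAM, and 12 and 219 in reC3. Plastid members gave 28 lower in EN minus ED of CAM and 8 higher in reC3; structural members gave 22 and 3 at ED, 3 higher in EN minus ED of CAM, and 1 and 176 in reC3. DESeq2 gave 5 lower at MD and 0 lower at ED, for all and for structural members. The average without EN gave 2 lower.

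The 6 compared libraries alone gave 18 higher and 5 lower at MD, 113 higher at MN, 31 and 12 at EN, 106 higher in MN minus MD of CAM, 8 higher in EN minus ED of CAM and 69 lower in reC3. Plastid members gave 9 lower at EN and 25 lower in EN minus ED of CAM, and structural members 4 and 43 in EN minus ED of reC3.

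Leaving out each library gave, for higher and lower members, 106 to 182 and 2 to 6 in the average, 16 to 45 and 0 to 5 at MD, 61 to 141 and 0 to 3 at ED, 16 to 73 and 2 to 3 at MN, and 36 to 87 and 8 to 42 at EN. The 3 lower members at MD became 0 without CAM MD replicate 1 or 2 or reC3 MD replicate 2, and 5 without CAM MN replicate 2 or reC3 EN replicate 1. The 1 lower at ED became 3 without CAM ED replicate 1, 2 without reC3 ED replicate 1 and 0 without CAM ED replicate 2 or 3 or reC3 ED replicate 3. MN minus MD gave 25 to 73 and 33 to 46 in CAM and 7 to 24 and 22 to 42 in reC3; EN minus ED gave 9 to 21 and 155 to 191 in CAM and 33 to 47 and 71 to 170 in reC3; the interaction gave 48 to 90. For plastid members the ranges were 22 to 31 higher at ED, 1 to 2 higher and 5 to 24 lower at EN, 9 to 21 lower in EN minus ED of CAM, 19 to 30 higher in reC3 and 20 to 31 for the interaction. For structural members they were 68 to 128 and 1 to 3 in the average, 27 to 94 and 0 to 2 at ED, 4 to 6 and 121 to 146 in EN minus ED of CAM, and 5 to 8 and 45 to 143 in reC3.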
